A study of Mus musculus with 8 samples.

Results

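The genes described here are 34 mouse genes of the interferon response and of antigen presentation, out of 55414 genes in the tables. They were chosen by name from the known pathway and not by their values, although results of these data were known when they were chosen. All 34 symbols were found, each at 1 Ensembl gene ID, and 31 of them passed the filter on low counts that left 14772 genes for testing. By role, 19 members are antiviral effectors, 7 are a sensor, transcription factors and a feedback regulator, 5 supply peptides to class I molecules and 3 are chains of class I molecules.

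RNA-seq was done in mpkCCD cells, a clonal line that descends from microdissected cortical collecting ducts of SV-PK/Tag transgenic mice and is used as a model of collecting duct principal cells. There were 4 libraries from cells given tolvaptan plus dDAVP and 4 from cells given dDAVP alone. dDAVP (desmopressin) is an agonist of the V2 vasopressin receptor, and tolvaptan is an antagonist of that receptor. dDAVP was present in both groups, so the comparison asks what the addition of tolvaptan did to the transcripts of cells given dDAVP. The labels give neither a dose nor a time, although the study's text states both, with a vehicle for tolvaptan in the control cells. Nothing in the labels says whether each library had a culture of its own, so the p-values measure a spread between libraries that may be technical.

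The libraries held 41179670 to 49720488 expected counts in the tolvaptan plus dDAVP group and 46189118 to 56203831 in the dDAVP alone group. Genes with at least 1 count numbered 23883 to 27685 in the tolvaptan plus dDAVP libraries and 22203 to 29246 in the dDAVP alone libraries, and replicates 1 and 2 had more of them than replicates 3 and 4 in both groups. The cell type was checked against 11 principal cell markers, of which 10 were tested and 9 averaged 1 TPM or more. Aqp2, the vasopressin-regulated water channel, averaged 9439 ± 1014 TPM (RSEM's length-adjusted share of a library's transcripts) with tolvaptan plus dDAVP and 8947 ± 871 TPM with dDAVP alone (SD, n = 4 each). Its log2 fold change from the counts was 0.05 (95% interval -0.12 to 0.22, edgeR adjusted p = 0.857), so these libraries showed no difference in Aqp2 beyond their spread. Elf5 stayed at or below 0.27 TPM. The 4 intercalated cell markers, 1 of which averaged 1 TPM or more, varied between libraries. They summed to 30.9 to 96.7 TPM with tolvaptan plus dDAVP and to 32.9 to 112 TPM with dDAVP alone. Of 16 immune cell markers only Cd14, Csf1r and Cd68 averaged 1 TPM or more, and the pan-leukocyte marker Ptprc lay at 0.10 to 0.23 TPM with tolvaptan plus dDAVP and at 0.07 to 0.26 TPM with dDAVP alone. In bulk RNA, fewer cells that use a gene and less RNA of it per cell cannot be told apart.

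Interferons are secreted proteins that act through cell-surface receptors and JAK kinases. Type I and type III interferons assemble ISGF3, a complex that contains STAT2 and IRF9 and binds the interferon-stimulated response element (ISRE), and interferon gamma acts through the gamma-activated site (GAS). Epithelial cells keep part of this programme running at a low level without infection, and nearly all nucleated cells show peptides to cytotoxic T cells on class I molecules.

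The ISRE and GAS letters are shown for the members whose RefSeq promoter window holds them, because they tie the list to its known regulators. The window ran from 250 bases before to 50 bases after each start (build GRCm38.p6), and 28 of the 34 members had one. Oas2, Rtp4, Mx1, Mx2, Usp18 and Tap2 had none. GAAANNGAAA, searched on both strands, was present in 10 of the 28 members (35.7%), against 3.99% of the 27025 genes with a window. TTCNNNGAA, which is its own reverse complement, was present in 7 of the 28 (25.0%), against 9.55% of all genes. A match is a description of letters and not a measured site. In the ISRE lines, capitals mark the matched letters, as GAAANNGAAA or as its reverse complement TTTCNNTTTC, with overlapping matches run together. The stretches lie at chr4:156200860-156200911 (Isg15, minus strand), chr19:34640770-34640828 (Ifit1, plus), chr19:34583358-34583431 (Ifit3, plus), chr8:71537572-71537617 (Bst2, minus), chr5:120907526-120907560 (Oas1a, minus), chr12:26456548-26456587 (Rsad2, minus) and chr2:122147533-122147572 (B2m, plus).
Isg15: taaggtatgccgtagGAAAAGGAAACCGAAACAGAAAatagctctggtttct
Ifit1: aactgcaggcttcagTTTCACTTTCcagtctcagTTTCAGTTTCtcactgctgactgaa
Ifit3: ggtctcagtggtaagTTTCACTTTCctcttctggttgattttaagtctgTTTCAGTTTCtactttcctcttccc
Bst2: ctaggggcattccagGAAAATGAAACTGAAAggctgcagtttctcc
Oas1a: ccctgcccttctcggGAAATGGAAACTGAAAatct
Rsad2: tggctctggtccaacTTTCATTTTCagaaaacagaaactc
B2m: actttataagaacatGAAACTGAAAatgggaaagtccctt

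The other ISRE members were Oas3, Ifih1 and Stat2. The 10 members with the ISRE letters had a median level of 14.0 TPM over the 8 libraries (0.065 to 117 TPM), and the 18 with a window but no ISRE letters had 27.1 TPM (0.0525 to 345 TPM). The GAS letters were found for Ifit2, Isg20, Oas1a, Bst2, Ifi35, Irf1 and Psmb8, and in Bst2 they overlapped the ISRE letters. They are shown for Irf1 at chr11:53769909-53769947 and Psmb8 at chr17:34198083-34198121, both on the plus strand, since Irf1 had the smallest p-value among the members and Psmb8 was nearly silent.
Irf1: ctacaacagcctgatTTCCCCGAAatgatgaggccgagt
Psmb8: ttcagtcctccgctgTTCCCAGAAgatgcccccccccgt

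Most of the list was transcribed in both groups, over a wide range of levels. Of the 34 members, 27 averaged 1 TPM or more over the 8 libraries and are called expressed here: 18 lay at 10 TPM or above, 3 of these at 100 TPM or above (H2-K1, H2-D1 and B2m), and 9 lay between 1 and 10 TPM. The 7 below 1 TPM were Oas2, Oas3, Rsad2, Ifi44, Mx1, Mx2 and Psmb8. The members together summed to 1366 to 1460 TPM in the tolvaptan plus dDAVP libraries and to 1370 to 1395 TPM in the dDAVP alone libraries, ranges that overlap.

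**Figure D1:**
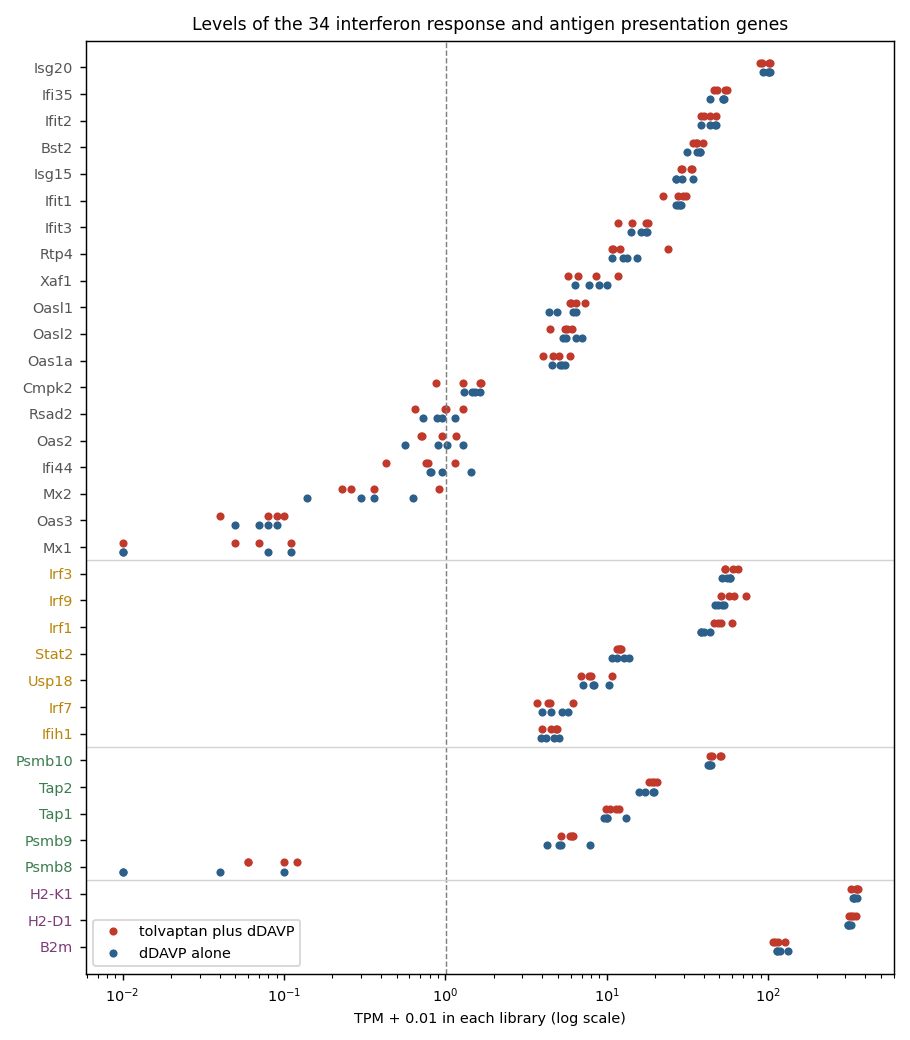
Level of each of the 34 members in every library, as TPM + 0.01 on a log scale, with tolvaptan plus dDAVP in red above dDAVP alone in blue and the members grouped by role. The dashed line marks 1 TPM. H2-K1, H2-D1 and B2m stand to the right of it above 100 TPM, and Oas3, Mx1 and Psmb8 stay at or below 0.11 TPM in every library.

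No member passed the test between the groups. With edgeR's quasi-likelihood test and Benjamini-Hochberg adjustment over all 14772 genes, 0 of 31 tested members had an adjusted p under 0.05, where 59 genes (0.399%) did, 27 of them higher and 32 lower with tolvaptan plus dDAVP. At an unadjusted p under 0.05 there were 2 members of 31 (6.45%), Irf1 and Irf9, against 11.2% of all genes. The log2 CPM (counts scaled to the library total after edgeR's TMM adjustment) of the groups did not overlap in 1 member, Irf1 (3.23%), against 7.76% of all genes.

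The fold changes of the members were small and lay on both sides of 0. The log2 fold change of tolvaptan plus dDAVP over dDAVP alone was above 0 in 14 members and below 0 in 17, with a median of -0.0032, where the median of all genes was -0.0048. Its median size regardless of sign was 0.066 among the members and 0.085 among all genes. The 95% interval held 0 in 29 of 31 members. It lay within a 1.5-fold difference either way in 28 of them, all but Rtp4, Mx2 and Cmpk2, and within 1.25-fold in 16, among them H2-K1, H2-D1, B2m, Tap1, Tap2, Isg15, Ifit1 and Bst2.

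**Figure D2:**
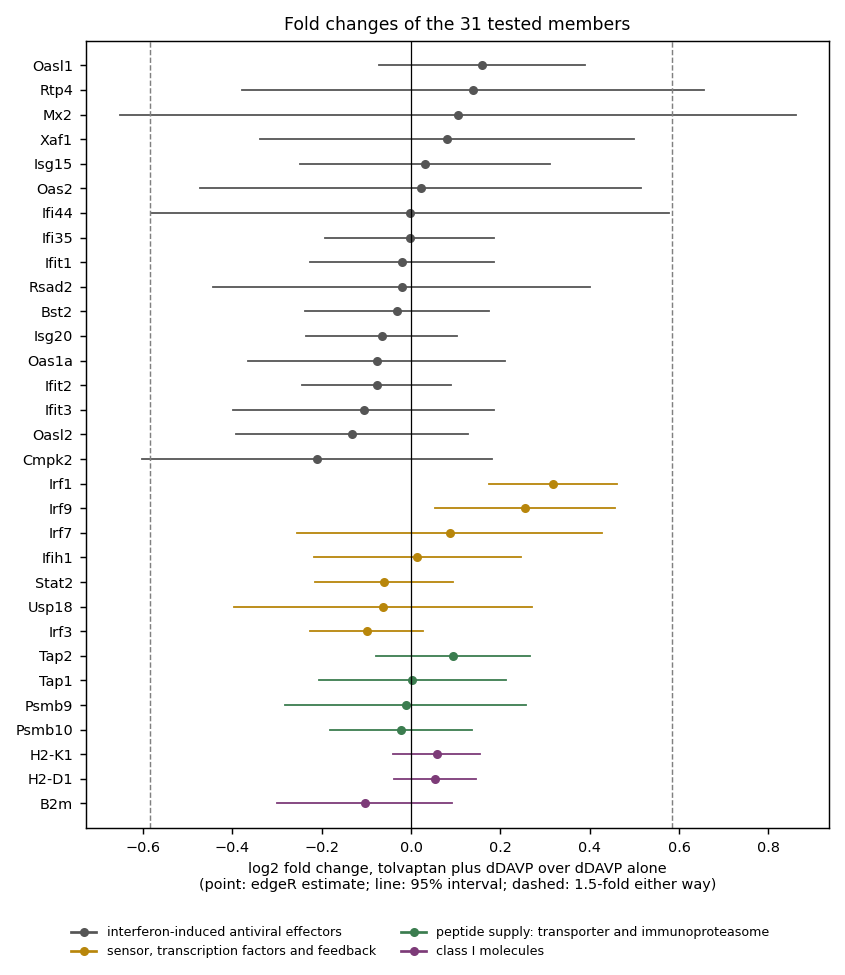
Log2 fold change of the 31 tested members, tolvaptan plus dDAVP over dDAVP alone, with points for edgeR estimates, lines for 95% intervals and colours for the 4 roles. The intervals of Irf1 (0.18 to 0.46) and Irf9 (0.05 to 0.46) lie above 0, and those of Rtp4, Mx2 and Cmpk2 cross a dashed line at 1.5-fold.

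Among the antiviral effectors, 17 of 19 were tested, 6 lay above 0 and 11 below, and the median log2 fold change was -0.02. Isg20, an exonuclease that degrades RNA, was the most abundant of them, with 92.1, 88.9, 102 and 103 TPM with tolvaptan plus dDAVP and 103, 93.1, 99.97 and 102 TPM with dDAVP alone. The groups overlapped: replicates 3 and 4 of tolvaptan plus dDAVP lay within the dDAVP alone range, and replicates 1 and 2 lay below it. The log2 fold change was -0.07 ± 0.08 (SE, adjusted p = 0.804). The effector with the largest fold change was Cmpk2, a nucleotide kinase of mitochondria, at 1.28, 0.87, 1.63 and 1.66 TPM with tolvaptan plus dDAVP and 1.45, 1.64, 1.51 and 1.29 TPM with dDAVP alone. Replicate 2 of the tolvaptan plus dDAVP group was the lowest of the 8 libraries and replicate 4 the highest, and its log2 fold change of -0.21 ± 0.18 did not pass the test (adjusted p = 0.715).

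The other effectors differed more in level than between groups. Ifi35 averaged 51.1 ± 4.42 TPM with tolvaptan plus dDAVP and 50.5 ± 4.37 TPM with dDAVP alone. Ifit2 averaged 42.5 ± 4.22 and 44.2 ± 4.19 TPM in the same order of groups, and Ifit1, which binds the ends of foreign RNA, averaged 27.7 ± 3.89 TPM with tolvaptan plus dDAVP and 28.0 ± 0.857 TPM with dDAVP alone. Bst2 (tetherin), which holds budding virus at the cell surface, averaged 36.5 ± 2.14 TPM with tolvaptan plus dDAVP and 35.9 ± 3.14 TPM with dDAVP alone (SD, n = 4 each throughout). Between the groups each of these means differed by less than the SD of a group. Isg15, a ubiquitin-like protein that is attached to other proteins, ran between 28.9 and 33.98 TPM with tolvaptan plus dDAVP and between 26.8 and 34.5 TPM with dDAVP alone. Ifit3, whose protein pairs with the other Ifit proteins, averaged 15.4 ± 2.94 TPM with tolvaptan plus dDAVP and 16.5 ± 1.64 TPM with dDAVP alone, and its reads may be shared with the near-identical copy Ifit3b.

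The 2′-5′ oligoadenylate synthetases, which sense double-stranded RNA and switch on RNase L, were low throughout. Oas1a averaged 4.91 ± 0.778 TPM with tolvaptan plus dDAVP and 5.14 ± 0.389 TPM with dDAVP alone, and it too has close paralogs. Oas2 averaged 0.875 and 0.935 TPM in these groups. Oas3 had 2, 7, 11 and 5 counts with tolvaptan plus dDAVP and 11, 5, 8 and 4 counts with dDAVP alone, too few to be tested. The related genes Oasl1, at 6.42 ± 0.629 TPM with tolvaptan plus dDAVP and 5.48 ± 1.01 TPM with dDAVP alone, and Oasl2, at 5.43 ± 0.707 and 6.10 ± 0.753 TPM in the same groups, had log2 fold changes of opposite sign, 0.16 (95% interval -0.07 to 0.39) and -0.13 (-0.39 to 0.13), and neither interval left out 0.

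Mx1, Rsad2, Ifi44 and Mx2 were near the floor in both groups. Other interferon-induced effectors were not, with Ifit2 at 43.4, Isg15 at 30.4 and Ifit1 at 27.8 TPM on average over the 8 libraries. Mx1, a GTPase that blocks influenza virus in mice, had 6, 3, 0 and 1 counts with tolvaptan plus dDAVP and 8, 5, 0 and 0 counts with dDAVP alone. Rsad2 (viperin), an enzyme that makes a chain-terminating nucleotide, averaged 0.975 ± 0.262 TPM with tolvaptan plus dDAVP and 0.920 ± 0.174 TPM with dDAVP alone. Ifi44 averaged 0.770 ± 0.294 and 0.993 ± 0.301 TPM in these groups, and Mx2 0.430 ± 0.318 and 0.348 ± 0.204 TPM. At this depth the intervals of Rsad2 (-0.44 to 0.40), Ifi44 (-0.58 to 0.58) and Mx2 (-0.65 to 0.86) were wider than those of the class I molecules. Those of Rsad2 and Ifi44 stayed within a 1.5-fold difference either way but not within 1.25-fold, and that of Mx2 went beyond 1.5-fold.

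The sensor, the transcription factors and the feedback regulator held both members with the smallest p-values. Irf1 (ENSMUSG00000018899), a transcription factor that interferon gamma and NF-kB induce and that drives class I and immunoproteasome genes, had 59.5, 48.7, 51.2 and 46.0 TPM with tolvaptan plus dDAVP and 39.9, 38.4, 38.7 and 43.7 TPM with dDAVP alone. Every tolvaptan plus dDAVP library was above every dDAVP alone library. The means were 51.3 ± 5.82 and 40.2 ± 2.45 TPM, and the log2 fold change was 0.32 ± 0.07 (95% interval 0.18 to 0.46). The edgeR p-value was 0.000383 before adjustment and 0.0690 after it, which misses the threshold of 0.05. The call depended on the settings: the adjusted p was 0.00220 with DESeq2 and 0.00741 in edgeR with no filter on low counts, and it lay between 0.0774 and 0.218 when any 1 library was left out. Gm17334, on the other strand of chromosome 11, shares exon sequence with Irf1 in GENCODE M21, and without strand in the libraries their reads cannot be told apart there. It averaged 3.14 TPM with tolvaptan plus dDAVP and 2.59 TPM with dDAVP alone.

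Irf9 (ENSMUSG00000002325), the DNA-binding subunit of ISGF3, had 61.4, 51.4, 73.5 and 57.3 TPM with tolvaptan plus dDAVP and 53.1, 47.2, 51.7 and 48.9 TPM with dDAVP alone. Replicates 1, 3 and 4 of the tolvaptan plus dDAVP group were above all of the dDAVP alone libraries, and replicate 2 was among them. The log2 fold change was 0.26 ± 0.09 (95% interval 0.05 to 0.46), with an edgeR p of 0.0170 and an adjusted p of 0.314. Without replicate 3 of the tolvaptan plus dDAVP group, the library with the highest Irf9, it was 0.15 (adjusted p = 0.389). Rnf31, which shares exon sequence with Irf9 on the same strand of chromosome 14, had a log2 fold change of 0.01.

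The remaining members of that group did not stand out. Stat2, the other ISGF3 subunit on the list, averaged 12.0 ± 0.342 TPM with tolvaptan plus dDAVP and 12.2 ± 1.29 TPM with dDAVP alone. Irf3, the constitutive factor that nucleic acid sensors activate, had 65.1, 54.2, 54.3 and 60.3 TPM with tolvaptan plus dDAVP and 57.9, 55.7, 57.7 and 51.6 TPM with dDAVP alone, and the groups overlapped. Its log2 fold change from the counts was -0.10 ± 0.06 (adjusted p = 0.576), opposite in sign to the means of 58.5 ± 5.23 and 55.7 ± 2.94 TPM in the same groups. Irf7, the inducible factor that amplifies interferon production, averaged 4.65 ± 1.05 TPM with tolvaptan plus dDAVP and 4.89 ± 0.7995 TPM with dDAVP alone. It shares exon sequence with Phrf1 on the other strand, which at 55.4 TPM with tolvaptan plus dDAVP and 50.9 TPM with dDAVP alone was far more abundant, so its level is uncertain. Ifih1 (MDA5), the sensor of long double-stranded RNA, had a log2 fold change of 0.01 (-0.22 to 0.24) and Usp18, which strips Isg15 from proteins and damps the type I receptor, -0.06 (-0.40 to 0.27).

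**Figure D3:**
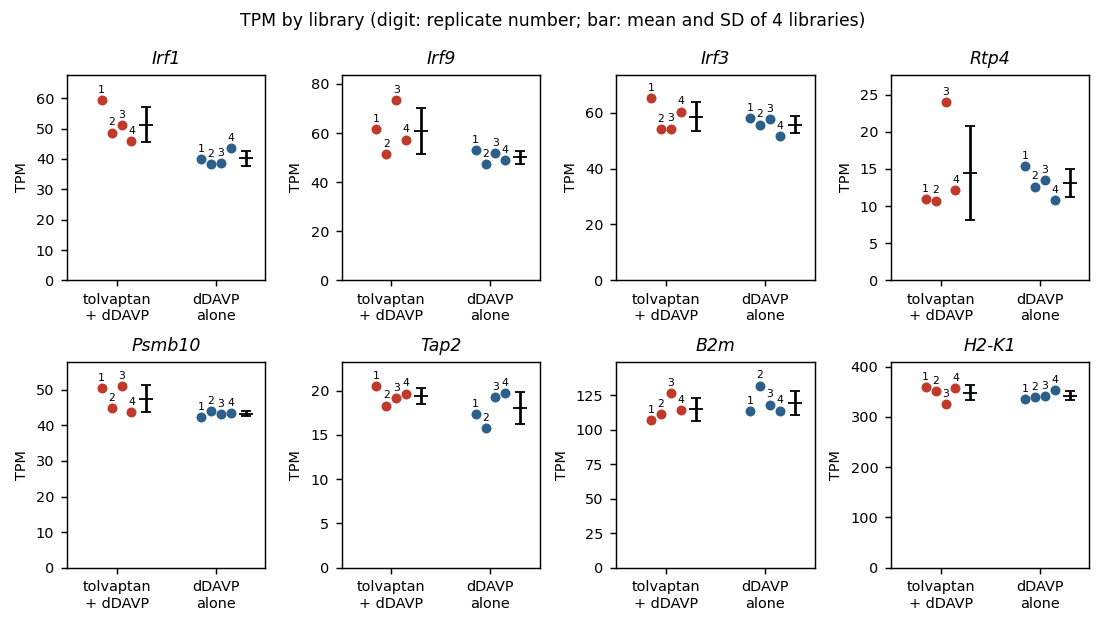
TPM in each library for 8 members, tolvaptan plus dDAVP on the left of each panel and dDAVP alone on the right, with digits for replicate numbers and bars for mean and SD of 4 libraries. Irf1 is the panel whose groups do not overlap, and replicate 3 of tolvaptan plus dDAVP stands highest in Irf9 (73.5 TPM) and Rtp4 (23.9 TPM).

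Of the 3 immunoproteasome subunits, Psmb8 was nearly missing at the transcript level in both groups. Psmb8, Psmb9 and Psmb10 are the inducible catalytic subunits that replace Psmb5, Psmb6 and Psmb7 and favour peptides that fit class I molecules. Psmb8 had 3, 3, 1 and 2 counts with tolvaptan plus dDAVP and 1, 4, 0 and 0 counts with dDAVP alone, at most 0.11 TPM, while its counterpart Psmb5 averaged 352 ± 11.3 TPM with tolvaptan plus dDAVP and 325 ± 3.90 TPM with dDAVP alone. Psmb9 averaged 5.86 ± 0.459 TPM with tolvaptan plus dDAVP and 5.61 ± 1.59 TPM with dDAVP alone, against 1063 ± 26.0 and 1020 ± 27.1 TPM for Psmb6 in the same groups. Psmb10 was the only one of the 3 above 10 TPM, and its counterpart Psmb7 averaged 177 ± 7.58 TPM with tolvaptan plus dDAVP and 173 ± 7.45 TPM with dDAVP alone. From the counts, none of the 3 counterparts, Psmb5 included, passed the test between the groups (lowest edgeR adjusted p = 0.644). In both groups each inducible subunit was below its counterpart in all 4 libraries on the TPM scale, which allows for transcript length.

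**Figure D4:**
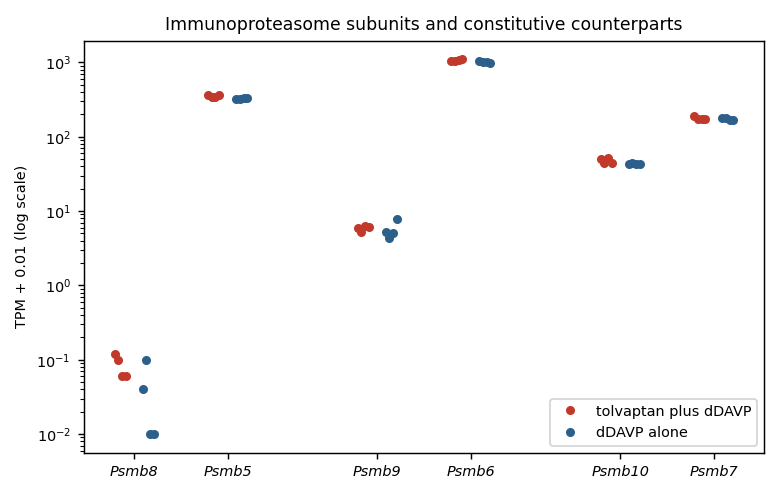
TPM + 0.01 on a log scale in each library for the 3 inducible proteasome subunits, each beside its constitutive counterpart, with tolvaptan plus dDAVP in red to the left of dDAVP alone in blue. Psmb8 lies at or below 0.11 TPM, Psmb9 between 4.28 and 7.92 TPM and Psmb10 between 42.3 and 51.0 TPM.

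Tolvaptan plus dDAVP did not separate from dDAVP alone in peptide supply: 2 of the 4 tested members lay above 0 and 2 below, with adjusted p-values of 0.713 to 0.996. Psmb10 had 50.4, 44.8, 51.0 and 43.7 TPM with tolvaptan plus dDAVP and 42.3, 44.1, 43.2 and 43.5 TPM with dDAVP alone, so that 3 of 4 tolvaptan plus dDAVP libraries were higher than every dDAVP alone library in TPM but its log2 fold change from the counts was -0.02 (-0.18 to 0.14). Tap2, which with Tap1 forms the pump that carries peptides into the endoplasmic reticulum, had 20.5, 18.3, 19.1 and 19.7 TPM with tolvaptan plus dDAVP and 17.4, 15.8, 19.3 and 19.7 TPM with dDAVP alone. The groups overlapped, and its log2 fold change of 0.09 ± 0.08 was the largest of this role (adjusted p = 0.713). Tap1 averaged 10.9 ± 0.937 TPM with tolvaptan plus dDAVP and 10.7 ± 1.66 TPM with dDAVP alone. Tap1 and Psmb9 lie head to head on chromosome 17 and share exon sequence on opposite strands in GENCODE M21, so reads of that stretch could be counted for either.

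Class I molecules were the most abundant members in both groups. H2-K1, a class I heavy chain, had 359, 351, 325 and 357 TPM with tolvaptan plus dDAVP and 335, 339, 341 and 354 TPM with dDAVP alone. Its groups overlapped, and the log2 fold change was 0.06 ± 0.05 (95% interval -0.04 to 0.15, adjusted p = 0.689). H2-D1, the other classical heavy chain, averaged 333 ± 14.5 TPM with tolvaptan plus dDAVP and 318 ± 6.19 TPM with dDAVP alone, with an interval of -0.04 to 0.14. These genes are similar in sequence, and the split of reads between them is uncertain. B2m, the light chain that every class I molecule needs, had 107, 111, 127 and 115 TPM with tolvaptan plus dDAVP and 114, 132, 118 and 114 TPM with dDAVP alone. The groups overlapped there too, and the log2 fold change was -0.10 ± 0.09 (adjusted p = 0.720). The intervals of these 3 members left out a difference of 1.25-fold in either direction.

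The members varied between libraries of a group more than a typical gene did, and 1 library stood out. The median within-group SD of log2 CPM was 0.161 over the tested members and 0.125 over all genes. In replicate 3 of the tolvaptan plus dDAVP group, 13 of 31 tested members (41.9%) had their highest CPM of the 8 libraries, as against 11.2% of all genes: Ifit1, Isg20, Oas1a, Bst2, Ifi35, Ifi44, Rtp4, Xaf1, Irf7, Irf9, Usp18, Psmb9 and Psmb10. In that library 26 of 31 members exceeded their own mean over the 8 libraries, by a median of 0.16 on the log2 scale, while 51.9% of all genes did. Replicate 1 of the same group was the reverse, with 13 of 31 members (41.9%) at their lowest CPM, against 25.6% of all genes, and a median deviation of -0.11. That library also held the highest CPM of 21.6% of all genes, and of 6.45% of the tested members.

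**Figure D5:**
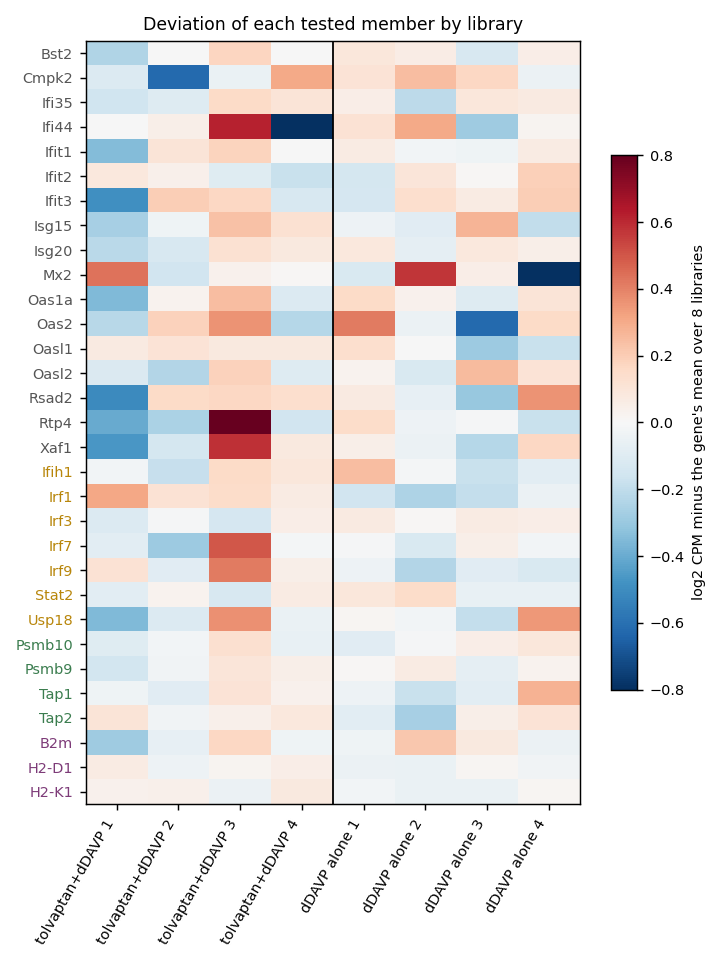
Deviation of log2 CPM from the gene's mean over the 8 libraries for the 31 tested members (rows, coloured by role) in each library (columns, the 4 tolvaptan plus dDAVP libraries left of the 4 dDAVP alone libraries), with red above and blue below the mean and the scale cut at 0.8 either way. Replicate 3 of tolvaptan plus dDAVP is red in most rows, with a median of 0.16, and replicate 1 is blue in most, with a median of -0.11.

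Leaving out that replicate 3 turned the direction of 7 members, but this was not particular to it. Without replicate 1 of the tolvaptan plus dDAVP group 11 members turned, and without replicate 4 of dDAVP alone 7 did. Rtp4, a receptor chaperone that interferon induces and that is given here because of its spread, had 10.96, 10.7, 23.9 and 12.1 TPM with tolvaptan plus dDAVP and 15.4, 12.6, 13.5 and 10.8 TPM with dDAVP alone. Its log2 fold change was 0.14 (-0.38 to 0.66) over all libraries and -0.25 without replicate 3 of the tolvaptan plus dDAVP group (edgeR adjusted p = 0.379), a change of direction. Xaf1, a partner of the apoptosis inhibitor XIAP, had its highest level there too, at 11.8 TPM against 5.72 to 8.63 TPM in the other tolvaptan plus dDAVP libraries and 6.36 to 10.02 TPM with dDAVP alone. The median log2 fold change of the members was -0.07 without that library. In the same library the 16 immune cell markers summed to 136 TPM, the highest of the 8 (111 to 136 TPM with tolvaptan plus dDAVP, 112 to 127 TPM with dDAVP alone). Cd14 made up 119 TPM of that sum and Ptprc 0.20 TPM. The 10 interferon ligands summed to 1.20 TPM in it, also the highest, and all of that was Ifnk, at 20 counts. Their sums ran from 0.63 to 1.20 TPM with tolvaptan plus dDAVP and from 0.67 to 1.14 TPM with dDAVP alone, so the margin was small. The part of either in the members' levels was not tested.

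The rest of the pathway gave no called gene either. From 8 lists of related genes, 111 genes were found and 88 tested, and 0 were higher and 0 lower at an edgeR adjusted p under 0.05. At an unadjusted p under 0.05 there were 9 (10.2%), against 11.2% of all genes. DESeq2 called 2 of the 88, Adar and Znfx1, both higher, where it called 337 of all 14772 genes. Without a filter on low counts, edgeR called Adar among 107 tested pathway genes, and 256 genes in all among those with any count. Adar and Znfx1 are named because of these calls, after their values were seen. Adar, which edits adenosine in double-stranded RNA, averaged 30.5 ± 2.52 TPM with tolvaptan plus dDAVP and 25.0 ± 3.07 TPM with dDAVP alone (log2 fold change 0.31 ± 0.08, edgeR adjusted p = 0.115). Znfx1, an RNA helicase-like protein of antiviral defence, averaged 35.5 ± 2.73 TPM with tolvaptan plus dDAVP and 29.7 ± 1.97 TPM with dDAVP alone (0.25 ± 0.06, edgeR adjusted p = 0.119).

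Transcripts of interferon ligands were near the floor. Of 10 ligand genes only Ifnk was tested, at 0.660 ± 0.442 TPM with tolvaptan plus dDAVP and 0.703 ± 0.156 TPM with dDAVP alone, and Ifna1, Ifna5 and Ifnl2 were at 0 in every library. Ifnb1 was at 0 in 3 of 4 libraries of each group and reached 0.07 TPM with tolvaptan plus dDAVP and 0.21 TPM with dDAVP alone. The receiving side was present. Its most abundant genes were Il10rb, a chain of the type III interferon receptor, at 138 ± 7.14 TPM with tolvaptan plus dDAVP and 150 ± 8.57 TPM with dDAVP alone (adjusted p = 0.316), and Jak1, at 107 ± 7.07 and 101 ± 2.28 TPM in the same groups.

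Of the nucleic acid sensors and adaptors, 10 of 11 found were tested, 5 above 0 and 5 below. The adaptor Sting1 averaged 85.6 ± 1.92 TPM with tolvaptan plus dDAVP and 89.7 ± 9.11 TPM with dDAVP alone, and Tbk1, the kinase that phosphorylates Irf3, averaged 74.9 ± 2.39 and 70.3 ± 3.22 TPM in the same groups. All 8 brakes on interferon signaling had estimates below 0 (median -0.08 on the log2 scale), and none passed the test (lowest adjusted p = 0.551). Of these 8, Socs3, Pias1, Ptpn2, Irf2 and Irf2bp1 had their lowest CPM in replicate 1 of the tolvaptan plus dDAVP group. That is a larger share than the 25.6% of all genes with their lowest CPM there. The part of that library in the estimates was not tested. Pias1, an inhibitor of interferon signaling, averaged 80.2 ± 3.32 TPM with tolvaptan plus dDAVP and 86.5 ± 6.01 TPM with dDAVP alone, and the phosphatase Ptpn6 averaged 55.0 ± 5.21 and 54.1 ± 6.37 TPM in these groups.

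Of 45 further interferon-stimulated genes, 40 were tested, 16 above 0 and 24 below (median -0.05 on the log2 scale, lowest adjusted p = 0.115). Ifitm2, a membrane protein that hinders virus entry, averaged 506 ± 20.9 TPM with tolvaptan plus dDAVP and 490 ± 9.42 TPM with dDAVP alone, and Shisa5 averaged 213 ± 7.57 and 218 ± 6.26 TPM in these groups. Among 17 further class I genes, 14 were tested, and the endoplasmic reticulum chaperones Calr and Pdia3 were the most abundant: Calr averaged 546 ± 17.7 TPM with tolvaptan plus dDAVP and 572 ± 45.5 TPM with dDAVP alone. Class II presentation genes mostly fell below the filter, with 2 of 7 tested: H2-DMa averaged 15.2 ± 0.996 TPM with tolvaptan plus dDAVP and 13.2 ± 0.459 TPM with dDAVP alone, and H2-DMb1 averaged 7.04 ± 0.848 and 7.21 ± 0.656 TPM in these groups. From the counts, neither H2-DMa nor H2-DMb1 passed the test (lowest edgeR adjusted p = 0.782).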

How the data were processed

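The authors aligned paired-end reads with STAR to the mouse Ensembl genome and deposited TPM and expected counts per gene from RSEM (versions not given in the sources used here). The value columns are headed Ctr or Tol with a digit, and no title holds the word Ctr. Ctr was read as dDAVP alone, Tol as tolvaptan plus dDAVP and the digit as the replicate number of the titles. Expected counts were rounded and tested in R 4.3.3 with edgeR 4.0.16 (TMM, quasi-likelihood F-test, two-sided, no covariate, Benjamini-Hochberg over all genes tested) for genes with at least 10 counts in at least 4 libraries. The study's methods used DESeq2, which was run here as an alternative (1.42.0), beside limma 3.58.1 on log2(TPM + 1) and log2(TPM + 0.1), other scalings and filters, a replicate block and the omission of each library. The deposited DESeq2 and gene ontology tables hold the authors' own comparisons and were not used. TPM, which allow for transcript length, were used for levels. CPM are counts scaled to the TMM-adjusted library total, with a prior count of 2 on the log2 scale. The members and lists were chosen with earlier results of these data known. Values in every library are given for members with an unadjusted p under 0.05 and for the most abundant and the most different tested member of each role. From other lists, called genes and at most 2 by level are named. Exon overlaps were taken from GENCODE M21, which is not the authors' annotation (Ensembl release 106), and promoters from RefSeq tables.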

Additional observations from a re-analysis of the deposited data

Results flagged for a closer look

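Single libraries far from the other 3 of their group were looked for in TPM, in 62 groups of 4 libraries over the 31 tested members. There were 3 such values, and chance flags about 1 group in 20. Rtp4 reached 23.9 TPM in replicate 3 of the tolvaptan plus dDAVP group, where the nearest other library had 12.1 TPM. Ifi35 was lowest in replicate 2 of the dDAVP alone group, at 43.9 TPM, where the nearest had 52.4 TPM. Tap1 was highest in replicate 4 of that group, at 13.2 TPM, where the nearest had 10.1 TPM.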

How the results depend on the processing

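The number of genes called was 59 and stayed between 53 and 59 with RLE or upper-quartile scaling, filterByExpr, or genes with a maximum TPM above 10. It was 337 with DESeq2 (199 higher, 138 lower with tolvaptan plus dDAVP), 256 with no filter (128 and 128), 22 with limma on log2(TPM + 1) (3 and 19), 28 with limma on log2(TPM + 0.1) (8 and 20), 17 with the replicate block (3 and 14), 47 with a term for replicates 1 and 2 against 3 and 4, and 20 to 82 when single libraries were left out. The cause was not tested. No shared batch or culture is named for a replicate number, and the deviations of same-numbered libraries correlated at -0.0126, 0.0260, 0.157 and -0.0088, with 1 of 4 numbers matched best by its own, so the numbers were not taken as pairs. Members called stayed at 0 except with DESeq2 and with no filter. There Irf1 was the 1 member called, of 31 with DESeq2 and of all 34 with no filter, where Oas3, Mx1 and Psmb8 entered too. In all, DESeq2 called 337 of 14772 genes, and edgeR with no filter called 256 of the larger set with any count. Its log2 fold change lay between 0.26 and 0.36 and its adjusted p between 0.00220 and 0.218 over all alternatives.

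Some members that were not called changed sign in some settings, and not only those near 0: Rtp4, at 0.14 over all libraries, was among them. With limma on log2(TPM + 1), and then on log2(TPM + 0.1), the differences were -0.0385 and -0.0599 for Oas2, 0.0354 and 0.0568 for Rsad2, 0.0238 and 0.0245 for Bst2, 0.0191 and 0.0195 for Ifi35, -0.0402 and -0.0479 for Xaf1, 0.0655 and 0.0665 for Irf3, -0.0656 and -0.0794 for Irf7, 0.0790 and 0.0957 for Psmb9 and 0.1270 and 0.1294 for Psmb10. Ifi35 was at 0.0020 with a maximum TPM above 10 and at 0.0014 with upper-quartile scaling. Ifi44 was at 0.0027 with upper-quartile scaling and 0.0063 with the term for replicates 1 and 2 against 3 and 4. With no filter Ifih1 was at -0.0021 and Tap1 at -0.0136. With single libraries left out, the log2 fold change ranged from -0.0975 to 0.0342 for Bst2, -0.0682 to 0.0444 for Ifi35, -0.2686 to 0.2030 for Ifi44, -0.0420 to 0.1077 for Ifih1, -0.0869 to 0.0748 for Ifit1, -0.1941 to 0.0134 for Ifit3, -0.1012 to 0.1883 for Irf7, -0.0446 to 0.1355 for Isg15, -0.1075 to 0.3836 for Mx2, -0.1841 to 0.0135 for Oas1a, -0.1435 to 0.1888 for Oas2, -0.0718 to 0.0064 for Psmb10, -0.0479 to 0.0294 for Psmb9, -0.1189 to 0.1136 for Rsad2, -0.2514 to 0.2747 for Rtp4, -0.0525 to 0.1090 for Tap1, -0.2166 to 0.0510 for Usp18 and -0.1491 to 0.2167 for Xaf1. The other 13 tested members kept their sign when any 1 library was left out. Depth limited the members below 1 TPM, 3 of which could not be tested.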
